A study of Mus musculus with 12 samples.

Results

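DNA replication and S phase genes were examined in mouse CD4+ T cells. The set held 39 genes, found by gene symbol among the 35492 symbols of the deposited tables, and all 39 were found and tested. RNA was measured by sequencing in 12 libraries, 3 per group, from C57BL/6J mice aged 7 weeks. For Tfh_TILS, CD4+ cells with CXCR5 and PD1 on their surface, the phenotype of T follicular helper (Tfh) cells, were isolated from MC38 tumours, a transplantable mouse colon cancer. The Tfh_OTII and Tfh_Vitro libraries came from naive CD4+ T cells of spleen and lymph nodes, driven toward the Tfh fate by IL-6 and IL-21 with antibodies against IL-4, IFNγ and TGFβ. The source was OT-II mice for Tfh_OTII, which bear a transgenic ovalbumin-specific T cell receptor, and wild-type mice for Tfh_Vitro. The Th1_Vitro libraries came from wild-type naive cells given IL-12 and an antibody against IL-4. All cultures grew on plates coated for CD3 and CD28 stimulation. The titles give 48 h of culture for Tfh_OTII and 24 h for Tfh_Vitro and Th1_Vitro, whereas the protocol text gives 48 h for both culture recipes. Tfh_OTII and Tfh_Vitro therefore differ in mouse line and, by their titles, also in time, and these cannot be told apart. A culture of activated naive cells and cells isolated from a tumour likewise differ in many respects at once. The labels list all cultured samples as naive T cells, their growth text names only wild-type mice as the source of the cultures, and whether animals were pooled is not stated.

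Before a cell copies its genome, the origin recognition complex, Cdc6 and Cdt1 load the MCM helicase onto DNA, a step called licensing. At the start of S phase, Cdc45, the GINS complex and Mcm10 turn that helicase on, polymerases copy the strands behind it, and the Pcna clamp, loaded by replication factor C, keeps them on the template. Fen1 and Lig1 finish the lagging strand, ribonucleotide reductase and thymidylate synthase supply the nucleotides, and chromatin assembly factor 1 packs the new DNA. Transcription of most of these genes is controlled by E2F factors, and cyclin E drives entry into S phase. T cells leave quiescence within a day of activation through the antigen receptor and then divide fast, so these transcripts are a common measure of how many cells in a sample are cycling. In RNA from many cells, fewer cycling cells and less of these transcripts per cell cannot be told apart.

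The start regions of the genes are shown because E2F control is what the members are best known to share, and the 4 genes printed are members whose upstream bases overlap no exon of the gene itself in GENCODE. RefSeq (GRCm38.p6) gave a start window, 250 bases before to 50 bases after the start, for 33 of the 39 members. The sequences are the 250 bases before the start, read 5′ to 3′ on the gene's strand, and capitals mark matches to an E2F-type motif. The 4 genes printed were taken from the 8 of 33 members with such a match in these 250 bases. The other members with a window had no match there.
Mcm5 (chr8:75109259-75109508, plus strand): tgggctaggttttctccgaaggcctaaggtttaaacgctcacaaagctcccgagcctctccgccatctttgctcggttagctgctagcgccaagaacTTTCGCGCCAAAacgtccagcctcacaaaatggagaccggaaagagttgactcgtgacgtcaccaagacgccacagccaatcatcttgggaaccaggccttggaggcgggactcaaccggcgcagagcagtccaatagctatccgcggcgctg
Mcm6 (chr1:128359706-128359955, minus strand): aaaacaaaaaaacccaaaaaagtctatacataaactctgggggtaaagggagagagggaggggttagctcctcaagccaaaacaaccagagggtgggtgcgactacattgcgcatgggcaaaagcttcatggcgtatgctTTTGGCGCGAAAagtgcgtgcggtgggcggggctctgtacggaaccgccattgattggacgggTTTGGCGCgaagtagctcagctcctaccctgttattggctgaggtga
Pola1 (chrX:93632156-93632405, minus strand): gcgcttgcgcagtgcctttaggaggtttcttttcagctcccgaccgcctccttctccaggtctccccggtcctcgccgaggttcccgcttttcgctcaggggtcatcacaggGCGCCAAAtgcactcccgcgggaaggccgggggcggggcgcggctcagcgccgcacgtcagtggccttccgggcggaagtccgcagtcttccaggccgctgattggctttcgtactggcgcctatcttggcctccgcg
Cdc25a (chr9:109875329-109875578, plus strand): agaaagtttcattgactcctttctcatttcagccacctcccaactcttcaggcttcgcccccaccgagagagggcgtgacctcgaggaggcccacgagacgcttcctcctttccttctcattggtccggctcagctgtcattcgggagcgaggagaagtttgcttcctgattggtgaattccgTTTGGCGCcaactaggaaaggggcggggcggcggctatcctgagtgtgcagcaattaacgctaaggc
The motif was TTTCCCGC, TTTGGCGC, TTTCGCGC or TTTGCCGC on either strand. Mcm5 held 2 overlapping matches, of which the first began at position -153 relative to the start. Mcm6 held 3, of which 2 overlapped and the third began at position -47. Pola1 held 1 match, at position -138, and Cdc25a held 1, at position -67. These 33 genes had 38 windows, since some have more than 1 start, and 13 of them (34.2%) held a match, against 2.27% of all 32851 windows. The CCAAT motif was in 60.5% of member windows against 37.4% of all windows, and the GC box GGGCGG in 71.1% against 35.7%. A match is a description of these letters, not a binding site. Of the genes printed, Pola1 passed the test among the Tfh groups in the fit of all 12 libraries, Mcm5 and Mcm6 passed only in a fit without the Th1_Vitro libraries, and Cdc25a passed in neither.

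Levels are given in TPM, a transcript abundance corrected for length and scaled to the same total in every library, and they carry no read counts, so depth is unknown and counting error cannot be stated. The 20 most abundant genes took 30.1% ± 7.20 of all TPM in Tfh_TILS, 19.9% ± 0.843 in Tfh_OTII, 28.0% ± 1.66 in Tfh_Vitro and 64.9% ± 8.78 in Th1_Vitro (SD, n = 3 each). Since each library has the same total, all other genes shared a smaller part of it in Th1_Vitro. Each comparison was therefore read as deposited and after scaling by median-of-ratios size factors, and "rose" and "fell" are used of a gene only where limma's adjusted p was under 0.05 in the same direction both ways. Scaling moved the median fold change of all genes by 0.717, 0.664 and 0.641 on the log2 scale in the comparisons of Tfh_TILS, Tfh_OTII and Tfh_Vitro with Th1_Vitro, and by under 0.1 among the Tfh groups. Symbols at 0 made up 32.2% ± 11.4 in Th1_Vitro, against 16.3% ± 1.77 in Tfh_TILS, 17.2% ± 7.03 in Tfh_OTII and 10.2% ± 3.11 in Tfh_Vitro (SD, n = 3 each). The most abundant gene took 297165, 426568 and 236666 TPM in the Th1_Vitro libraries. Spearman correlations between replicates were 0.826 to 0.828 in Th1_Vitro and 0.865 to 0.920 in the Tfh groups. The summed level of 12 T cell identity genes was 2201, 3898 and 2326 TPM in Tfh_TILS and at least 735.5 TPM in every library. Among 5 genes of the Tfh phenotype, Bcl6 and Icos rose in Tfh_TILS against both Tfh cultures, Cxcr5 rose against Tfh_OTII, Il21 fell against both and Pdcd1 passed in neither. Cxcr5, which marks the gate, was at 14.7, 11.00 and 16.3 TPM in Tfh_TILS, 6.56, 4.40 and 4.34 TPM in Tfh_OTII and 7.34, 5.50 and 6.74 TPM in Tfh_Vitro. Replicate 2 of Tfh_TILS stood apart in its summed level of 12 macrophage and monocyte markers. That sum was 92.6, 780.0 and 213 TPM in Tfh_TILS, and 11.04 to 41.9 TPM in the 9 culture libraries. The labels do not state whether replicates are separate animals or cultures, so each p-value reflects only the variation among these 12 libraries, part of which could be technical.

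The 39 genes together were highest in the OT-II cultures, intermediate in the wild-type Tfh cultures and lower in the tumour Tfh cells. Their summed level was 1374, 1446 and 1401 TPM in the Tfh_TILS libraries, 3756, 3832 and 3976 TPM in Tfh_OTII, 2709.6, 2515 and 2287 TPM in Tfh_Vitro and 372, 868 and 1303 TPM in Th1_Vitro. The 3 Tfh groups did not overlap in this sum, and the Th1_Vitro libraries were all below the Tfh_TILS libraries. After scaling, the Tfh groups still did not overlap (1025 to 1205 in Tfh_TILS, 2621 to 3792 in Tfh_OTII and 1771 to 2486 in Tfh_Vitro), whereas Th1_Vitro, at 687 to 1965, spanned the Tfh_TILS range. For 33 of the 39 genes, every Tfh_TILS library was below every Tfh_Vitro library and every Tfh_Vitro library below every Tfh_OTII library. Of all genes tested, 5.44% had that order. After scaling, 23 members had it, against 3.29% of all genes. The group means had the same order for 37 members both as deposited and after scaling, and the exceptions were Cdc45 and E2f1.

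**Figure D1:**
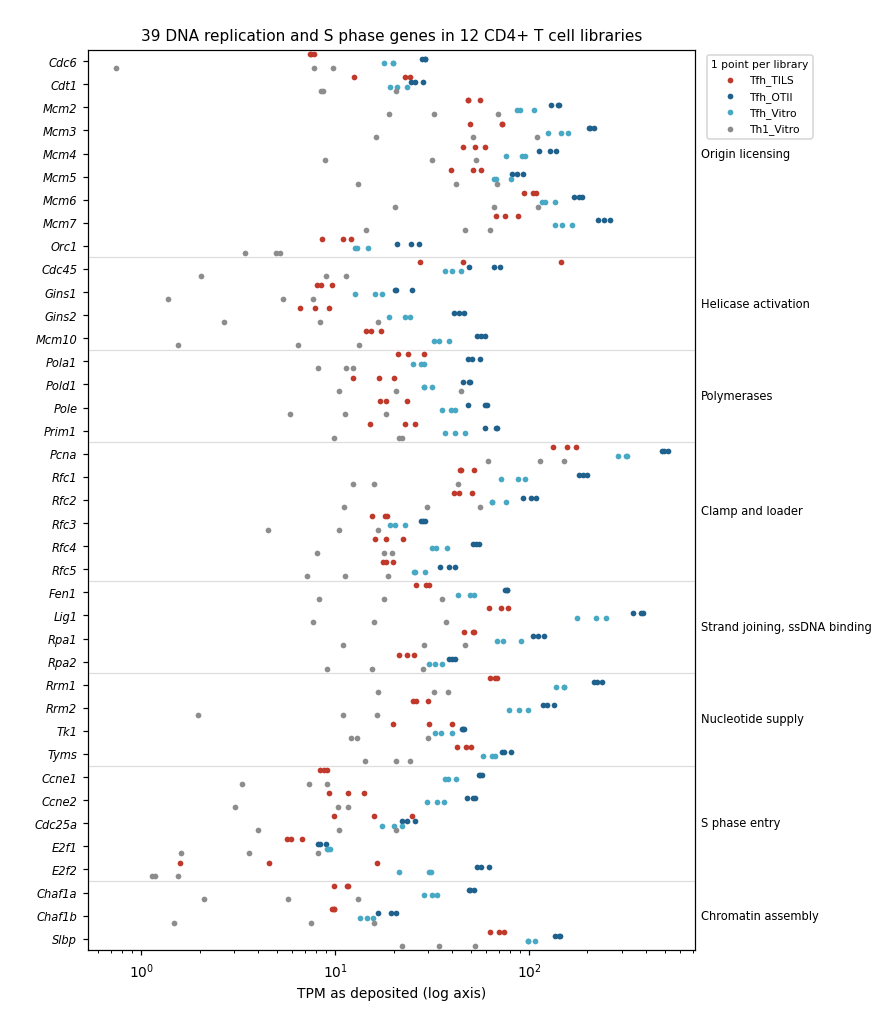
TPM as deposited (log axis) of the 39 genes in all 12 libraries, 1 point per library, grouped by role. For most genes the Tfh_TILS points lie left of the Tfh_Vitro points, which lie left of the Tfh_OTII points, while the Th1_Vitro points are the most spread; Cdc45, E2f1, Cdt1, Cdc25a, Tk1 and Pola1 break the order of the Tfh groups.

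The comparison of tumour Tfh cells with OT-II Tfh cultures gave the most members lower in tumour cells. Of the 39 members, 25 fell in Tfh_TILS both ways and none rose, while 6.84% of all 23308 genes tested were called lower and 6.76% higher both ways. The median fold change of the members was -1.38 on the log2 scale (-1.46 after scaling), against 0.06 over all genes tested (0.00 after scaling). By role, the genes that fell were 5 of 9 in licensing, 2 of 4 in helicase activation, 4 of 4 polymerase genes, 4 of 6 in clamp loading and 2 of 4 in strand joining. They also included 3 of 4 genes of nucleotide supply, 3 of 5 of S phase entry and 2 of 3 of chromatin assembly. For 37 members every Tfh_TILS library was below every Tfh_OTII library, which held for 18.2% of all genes. No member was higher at an unadjusted p under 0.05 by limma, as deposited, against 15.6% of all genes. Leaving out 1 of the 6 libraries compared at a time gave 14 to 21 members lower, fewest without Tfh_OTII replicate 3. Mcm3, Cdc6 and Tyms were lost whichever of the 6 was left out. Rfc5 was kept only without Tfh_TILS replicate 2, Fen1 only without Tfh_TILS replicate 1, and Slbp only without Tfh_TILS replicate 1 or 2. In a fit without the Th1_Vitro libraries, chosen after seeing the data, 34 members were lower, against 10.6% of all genes.

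In the comparison of tumour Tfh cells with wild-type Tfh cultures, Ccne1, Rrm1 and E2f2 fell in Tfh_TILS and no member rose. Of all genes tested, 0.849% were called lower and 0.965% higher both ways. The median fold change of the members was -0.74 (-0.86 after scaling), against 0.10 over all genes (0.00 after scaling). The libraries of the 2 groups did not overlap for 34 members, all lower in Tfh_TILS, whereas 10.4% of all genes were lower without overlap. At an unadjusted p under 0.05 by limma, as deposited, 19 members were lower and 0 higher. Of all genes, 5.74% were lower and 8.28% higher at that threshold. Without the Th1_Vitro libraries in the fit, 15 members fell both ways, against 1.96% of all genes. These were Mcm2, Mcm3, Mcm7, Mcm10, Pcna, Rrm1, Rrm2, Ccne1, Ccne2, Cdc6, Gins2, Pole, Rfc1, Lig1 and Chaf1a, and E2f2 was no longer among them. That count was 2 when Tfh_Vitro replicate 2 was also left out, 6 without Tfh_Vitro replicate 1, 9 without Tfh_TILS replicate 3, and 10 to 17 without any other of the 6 libraries compared. In the fit of all 12 libraries, Rrm1 was lost whichever of the 6 libraries was left out and E2f2 in 5 of the 6 cases, so only Ccne1 was called in every case.

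Between the OT-II and the wild-type Tfh cultures, 38 of the 39 members were higher in every Tfh_OTII library than in every Tfh_Vitro library, as deposited. E2f1 was lower in all by a small margin, with at most 9.02 TPM in Tfh_OTII and at least 9.04 TPM in Tfh_Vitro. After scaling, 24 members were above without overlap, against 11.6% of all genes (21.0% as deposited), and E2f1 overlapped. The median fold change was 0.56 (0.51 after scaling), against 0.05 over all genes (0.02 after scaling). No member passed the test both ways, while 0.661% of all genes were called higher both ways. Pola1 passed as deposited only, as did 0.987% of all genes counted as deposited, with an adjusted p of 0.0438, against 0.108 after scaling. At an unadjusted p under 0.05, limma gave 7 members higher and 0 lower as deposited, against 7.16% and 6.08% of all genes. After scaling it gave 3 of the 39 higher, against 5.70% of all genes. Without the Th1_Vitro libraries in the fit, Rfc1 alone was called higher both ways, against 1.18% of all genes, and it was lost in 4 of 6 fits that left out a further library. Each of the 3 comparisons among the Tfh groups shares libraries with the other two.

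**Figure D2:**
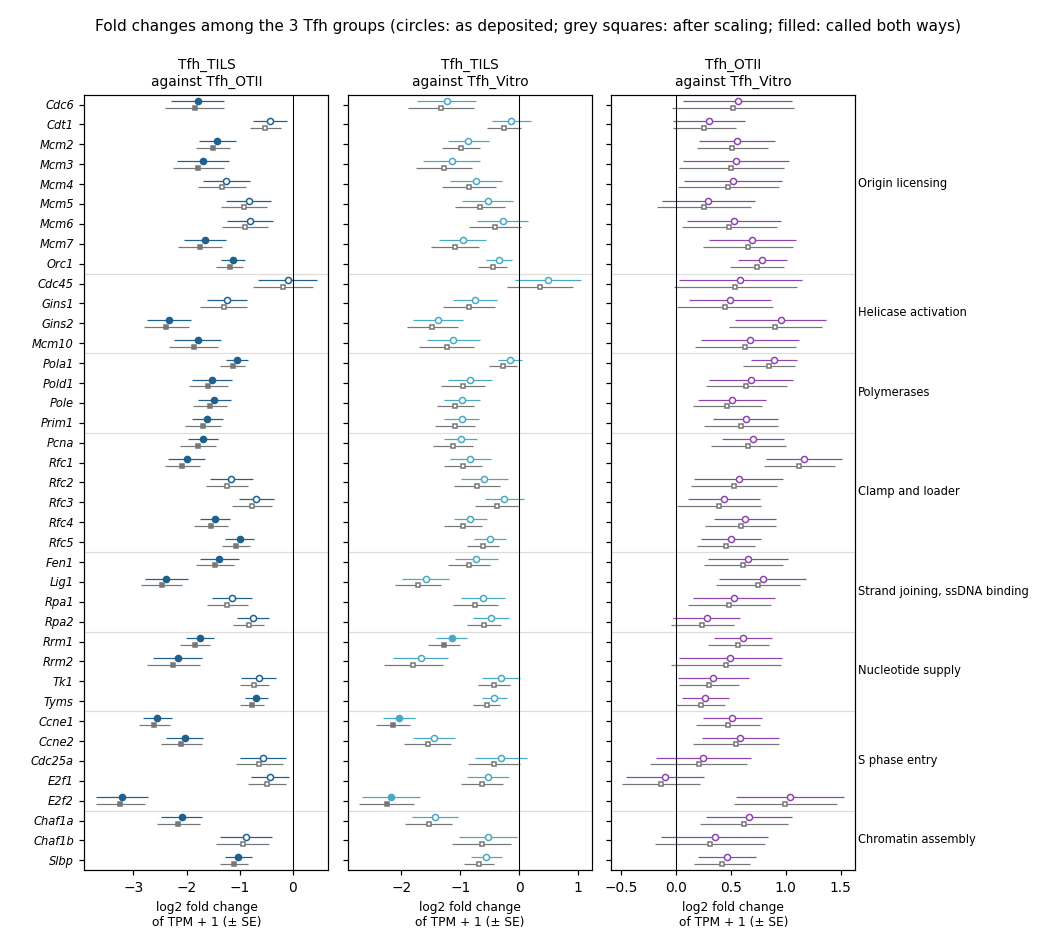
Log2 fold changes of TPM + 1 with limma's standard errors for the 39 genes in the 3 comparisons among the Tfh groups, as deposited (circles) and after scaling (grey squares), with filled symbols for genes called both ways. In Tfh_TILS against Tfh_OTII 25 genes are filled, all lower, in Tfh_TILS against Tfh_Vitro only Ccne1, Rrm1 and E2f2 are, and in Tfh_OTII against Tfh_Vitro none is although 38 of 39 circles lie above 0.

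Of the licensing genes, the helicase subunits Mcm2 to Mcm7 had higher levels than Cdc6, Cdt1 and Orc1 in all Tfh groups. The summed level of the 9 licensing genes was 441, 384 and 479.8 TPM in Tfh_TILS, 1027, 1049 and 1109 TPM in Tfh_OTII and 801, 713 and 659 TPM in Tfh_Vitro, with no overlap as deposited. After scaling, the sums of Tfh_OTII (716 to 1058) and Tfh_Vitro (510 to 735) overlapped, and Tfh_TILS (272 to 386) was below both. Mcm2, a subunit of the replicative helicase (chr6:88883474-88898780, minus strand, GRCm38), was at 48.7, 48.6 and 56.1 TPM in Tfh_TILS, 141, 130.3 and 143 TPM in Tfh_OTII and 106, 86.2 and 89.5 TPM in Tfh_Vitro. The 3 groups did not overlap, and Mcm2 fell in Tfh_TILS against Tfh_OTII by limma, with a log2 fold change of -1.42 ± 0.34 (SE; adjusted p = 0.0147). Against Tfh_Vitro its fold change was -0.86 ± 0.34 (adjusted p = 0.263), which did not pass. Cdc6, the loader that brings the helicase to the origin, had the largest difference of the licensing genes. It was at 7.44, 7.54 and 7.78 TPM in Tfh_TILS, 29.0, 28.1 and 29.0 TPM in Tfh_OTII and 19.9, 19.8 and 17.8 TPM in Tfh_Vitro, and its fold change against Tfh_OTII was -1.79 ± 0.50 (adjusted p = 0.0282). Mcm3, Mcm7 and Orc1, the largest subunit of the origin recognition complex, also fell against Tfh_OTII, with fold changes of -1.69, -1.66 and -1.12. The calls of Cdc6 and Mcm3 were lost whichever of the libraries compared was left out. Mcm7 averaged 76.8 ± 10.2 TPM in Tfh_TILS, 243 ± 17.9 TPM in Tfh_OTII and 149.9 ± 15.2 TPM in Tfh_Vitro (SD, n = 3 each). The other helicase subunits, Mcm4, Mcm5 and Mcm6, missed the threshold in the fit of all 12 libraries, with adjusted p of 0.0797, 0.221 and 0.242. Mcm5 was at 56.2, 39.6 and 51.5 TPM in Tfh_TILS, 93.3, 82.0 and 86.3 TPM in Tfh_OTII and 80.6, 67.4 and 65.7 TPM in Tfh_Vitro. As deposited these ranges were apart but near each other, and the fold change of Mcm5 against Tfh_OTII was -0.83 ± 0.43. After scaling, Mcm5 overlapped between Tfh_OTII and Tfh_Vitro. The subunits of the MCM complex thus had fold changes from -0.81 (Mcm6) to -1.69 (Mcm3) in this comparison. Cdt1, the partner of Cdc6 that is destroyed in S phase, was at 12.6, 23.1 and 24.3 TPM in Tfh_TILS, 24.6, 25.8 and 28.4 TPM in Tfh_OTII and 23.4, 19.3 and 20.9 TPM in Tfh_Vitro. Replicate 2 of Tfh_TILS lay within and replicate 3 above the Tfh_Vitro range, and the fold changes were -0.43 ± 0.33 against Tfh_OTII (adjusted p = 0.423) and -0.13 ± 0.33 against Tfh_Vitro (adjusted p = 0.933).

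Among the genes that switch the loaded helicase on, Gins2 and Mcm10 fell in Tfh_TILS and Cdc45 stood apart. Gins2, a GINS subunit, was at 9.27, 6.58 and 7.89 TPM in Tfh_TILS, 46.3, 40.9 and 43.3 TPM in Tfh_OTII and 24.4, 23.0 and 18.9 TPM in Tfh_Vitro. Its groups did not overlap, and its fold change against Tfh_OTII was -2.33 ± 0.42 (adjusted p = 0.00271), while against Tfh_Vitro it was -1.38 ± 0.42 (adjusted p = 0.12). Mcm10, which helps start unwinding, averaged 15.6 ± 1.48 TPM in Tfh_TILS, 56.4 ± 2.60 TPM in Tfh_OTII and 35.0 ± 3.21 TPM in Tfh_Vitro (SD, n = 3 each), and its adjusted p against Tfh_OTII was 0.0162. Gins1 averaged 8.72 ± 0.835 TPM in Tfh_TILS, 21.9 ± 2.47 TPM in Tfh_OTII and 15.4 ± 2.42 TPM in Tfh_Vitro, and passed against Tfh_OTII only as deposited (adjusted p = 0.0418, and 0.0657 after scaling). Cdc45, the helicase cofactor, was at 27.3, 146 and 45.7 TPM in Tfh_TILS, 48.8, 65.6 and 70.7 TPM in Tfh_OTII and 44.5, 39.9 and 37.0 TPM in Tfh_Vitro. Replicate 2 of Tfh_TILS was above every other library, while replicate 1 was below and replicate 3 just above the Tfh_Vitro range. The fold changes were -0.10 ± 0.56 against Tfh_OTII (adjusted p = 0.937) and 0.49 ± 0.56 against Tfh_Vitro (adjusted p = 0.812), and without replicate 2 they were -0.77 and -0.19. That replicate also had the highest macrophage and monocyte marker sum, 780.0 TPM, and the part of those transcripts in the Cdc45 value was not tested. Exons of Cdc45 overlap those of Ufd1 on the other strand, and whether the quantification used strand is not given in the sources used here. Ufd1 was at 44.1, 60.7 and 50.8 TPM in Tfh_TILS and averaged 71.4 TPM in Tfh_OTII and 56.4 TPM in Tfh_Vitro. The part of Ufd1 reads in the Cdc45 values was not tested.

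All 4 polymerase genes fell in Tfh_TILS against Tfh_OTII. Prim1, the primase catalytic subunit, had the largest difference, at 25.8, 15.1 and 22.8 TPM in Tfh_TILS, 67.9, 59.5 and 68.7 TPM in Tfh_OTII and 46.9, 41.6 and 37.0 TPM in Tfh_Vitro, with a fold change of -1.61 ± 0.30 against Tfh_OTII (adjusted p = 0.00318). Pold1 and Pole, the catalytic subunits of the lagging and leading strand polymerases, had fold changes of -1.52 and -1.48. Pole averaged 19.6 ± 3.38 TPM in Tfh_TILS, 56.1 ± 6.71 TPM in Tfh_OTII and 38.9 ± 3.07 TPM in Tfh_Vitro (SD, n = 3 each). Pola1, which starts each strand with primase, did not separate tumour cells from wild-type cultures. It was at 23.7, 21.2 and 28.8 TPM in Tfh_TILS, 50.6, 48.4 and 56.2 TPM in Tfh_OTII and 25.4, 28.9 and 27.8 TPM in Tfh_Vitro. Tfh_TILS and Tfh_Vitro overlapped, with a fold change of -0.16 ± 0.21 (adjusted p = 0.85), while Tfh_OTII was above both. Its fold change was -1.05 ± 0.21 in Tfh_TILS against Tfh_OTII (adjusted p = 0.00525) and 0.90 ± 0.21 in Tfh_OTII against Tfh_Vitro.

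The clamp had the highest level of its role group and the clamp loader subunits were lower. Pcna (chr2:132249162-132253314, minus strand), the sliding clamp, was at 174, 157 and 133 TPM in Tfh_TILS, 487, 495 and 518 TPM in Tfh_OTII and 321, 315 and 287 TPM in Tfh_Vitro. The groups lay far apart relative to their spread, and Pcna fell against Tfh_OTII with a fold change of -1.69 ± 0.29 (adjusted p = 0.00184), while -0.99 ± 0.29 against Tfh_Vitro did not pass (adjusted p = 0.101). Rfc1, the large subunit of the clamp loader, was at 44.3, 52.1 and 44.7 TPM in Tfh_TILS, 181, 198 and 189.9 TPM in Tfh_OTII and 94.7, 87.4 and 71.3 TPM in Tfh_Vitro. It had the largest fold change of the loader subunits, -1.99 ± 0.35 in Tfh_TILS against Tfh_OTII (adjusted p = 0.00228). In Tfh_OTII against Tfh_Vitro its fold change was 1.17 ± 0.35 (adjusted p = 0.115), and 1.17 ± 0.13 with an adjusted p of 0.00368 without the Th1_Vitro libraries (0.024 after scaling). The small subunits differed less. Rfc4 and Rfc5 fell against Tfh_OTII, with fold changes of -1.46 and -0.9962, while Rfc2 (-1.16, adjusted p = 0.0722) and Rfc3 (-0.69, adjusted p = 0.187) did not pass. Rfc3 was at 18.03, 18.6 and 15.4 TPM in Tfh_TILS, 27.9, 29.1 and 28.5 TPM in Tfh_OTII and 22.9, 20.5 and 19.3 TPM in Tfh_Vitro.

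Lig1 (chr7:13277283-13311433, plus strand), the ligase that seals lagging strand fragments, was at 62.2, 78.1 and 71.7 TPM in Tfh_TILS, 345, 387 and 379.6 TPM in Tfh_OTII and 250.03, 222 and 176 TPM in Tfh_Vitro. No libraries of different groups overlapped. Its fold change was -2.38 ± 0.40 against Tfh_OTII (adjusted p = 0.00172) and -1.59 ± 0.40 against Tfh_Vitro (adjusted p = 0.0601, and 0.0398 after scaling). Fen1, the flap endonuclease that works just before it, averaged 28.7 ± 2.25 TPM in Tfh_TILS, 76.2 ± 0.945 TPM in Tfh_OTII and 48.1 ± 4.73 TPM in Tfh_Vitro and fell against Tfh_OTII (adjusted p = 0.0223). Rpa1 and Rpa2, subunits of the protein that coats single-stranded DNA, differed less. Rpa2 was at 23.6, 25.7 and 21.4 TPM in Tfh_TILS, 41.6, 38.7 and 40.2 TPM in Tfh_OTII and 35.7, 30.5 and 32.7 TPM in Tfh_Vitro, with a fold change of -0.75 ± 0.31 against Tfh_OTII (adjusted p = 0.122). Rpa1 had a fold change of -1.14 and passed after scaling only (adjusted p = 0.0572 as deposited and 0.0467 after scaling).

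In nucleotide supply, both subunits of ribonucleotide reductase fell in Tfh_TILS. Rrm1, the large subunit, was at 63.0, 67.0 and 68.2 TPM in Tfh_TILS, 224, 236 and 216 TPM in Tfh_OTII and 152, 151 and 138 TPM in Tfh_Vitro. It fell against both cultures, with fold changes of -1.75 ± 0.26 against Tfh_OTII (adjusted p = 0.000866) and -1.15 ± 0.26 against Tfh_Vitro (adjusted p = 0.044, and 0.0338 after scaling). Rrm2 (chr12:24708241-24714146, plus strand), the small subunit whose level limits the enzyme in S phase, was at 26.1, 25.4 and 30.0 TPM in Tfh_TILS, 119, 123 and 134 TPM in Tfh_OTII and 98.8, 88.4 and 79.2 TPM in Tfh_Vitro. Its fold changes were larger, -2.17 ± 0.47 against Tfh_OTII (adjusted p = 0.0079) and -1.67 ± 0.47 against Tfh_Vitro, but the adjusted p of the second, 0.0919, did not pass in the fit of all 12 libraries. The standard error of Rrm2 in that fit was 0.47, and its values in Th1_Vitro, 1.97, 10.96 and 16.5 TPM, varied more than those of any Tfh group on the log scale. Tyms, thymidylate synthase, averaged 46.7 ± 3.65 TPM in Tfh_TILS, 75.7 ± 4.63 TPM in Tfh_OTII and 62.9 ± 4.68 TPM in Tfh_Vitro, and fell against Tfh_OTII with a fold change of -0.69 ± 0.21 (adjusted p = 0.0459). That call of Tyms was lost whichever of the libraries compared was left out. Tk1, thymidine kinase of the salvage route, was at 19.9, 40.0 and 30.4 TPM in Tfh_TILS, 45.3, 45.9 and 46.3 TPM in Tfh_OTII and 40.3, 32.9 and 35.2 TPM in Tfh_Vitro. Replicates 1 and 3 of Tfh_TILS lay below the Tfh_Vitro range and replicate 2 within it, and neither difference passed (adjusted p = 0.211 against Tfh_OTII and 0.79 against Tfh_Vitro).

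Among genes that control S phase entry, cyclin E and E2f2 differed most and E2f1 and Cdc25a least. Ccne1 (chr7:38097984-38107534, minus strand), cyclin E1, was at 9.12, 8.34 and 8.76 TPM in Tfh_TILS, 55.6, 57.5 and 55.4 TPM in Tfh_OTII and 38.4, 42.0 and 37.0 TPM in Tfh_Vitro. The tumour libraries were all below 10 TPM and the cultured Tfh libraries all above 35 TPM. Ccne1 fell with fold changes of -2.55 ± 0.27 against Tfh_OTII (adjusted p = 9.87e-05) and -2.04 ± 0.27 against Tfh_Vitro (adjusted p = 0.00331). Ccne2, cyclin E2, averaged 11.7 ± 2.44 TPM in Tfh_TILS, 50.5 ± 2.56 TPM in Tfh_OTII and 33.4 ± 3.35 TPM in Tfh_Vitro. It fell against Tfh_OTII (adjusted p = 0.00223) and missed the threshold against Tfh_Vitro (adjusted p = 0.0547). E2f2, an activating E2F factor, was at 1.58, 16.4 and 4.58 TPM in Tfh_TILS, 56.7, 53.7 and 62.0 TPM in Tfh_OTII and 31.4, 30.6 and 21.3 TPM in Tfh_Vitro. Replicate 2 of Tfh_TILS was the highest of the tumour libraries and still below every Tfh culture library. E2f2 fell with fold changes of -3.21 ± 0.49 against Tfh_OTII (adjusted p = 0.00101) and -2.17 ± 0.49 against Tfh_Vitro (adjusted p = 0.0416), and without replicate 2 the fold changes were -3.94 and -2.90. E2f1, the best-studied member of that family, was at 6.73, 5.65 and 5.91 TPM in Tfh_TILS, 9.02, 8.197 and 8.34 TPM in Tfh_OTII and 9.04, 9.40 and 9.18 TPM in Tfh_Vitro. It was lower in every tumour library than in any Tfh culture library, but the fold changes of -0.43 ± 0.35 against Tfh_OTII (adjusted p = 0.467) and -0.53 ± 0.35 against Tfh_Vitro (adjusted p = 0.591) did not pass. Cdc25a, the phosphatase that frees the S phase kinase from inhibition, was at 15.9, 9.84 and 25.0 TPM in Tfh_TILS, 22.2, 23.3 and 25.7 TPM in Tfh_OTII and 22.00, 17.5 and 20.2 TPM in Tfh_Vitro, and the tumour libraries ran from below both cultures to within the Tfh_OTII range.

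**Figure D3:**
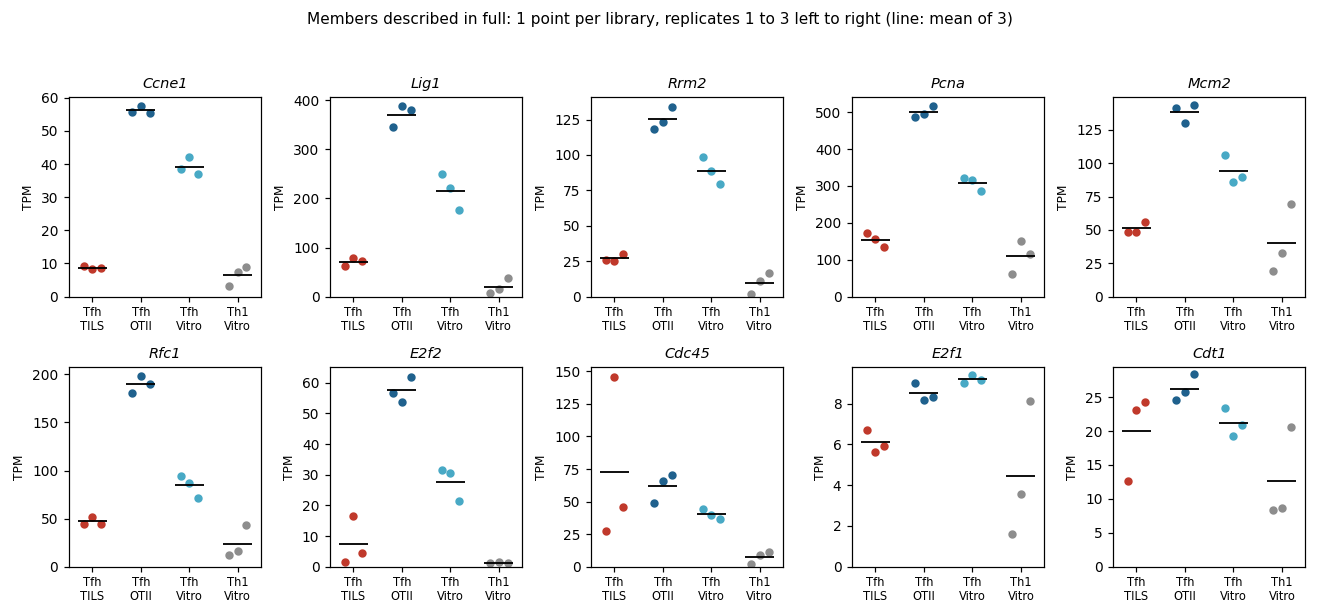
TPM of 10 members in each library, with replicates 1 to 3 from left to right and the mean of 3 as a line. Ccne1, Lig1, Rrm2, Pcna, Mcm2 and Rfc1 show separate Tfh groups as deposited, while after scaling Rrm2 overlaps between Tfh_OTII and Tfh_Vitro. E2f2 and Cdc45 show the high replicate 2 of Tfh_TILS (16.4 and 146 TPM), and E2f1 and Cdt1 differ little among the Tfh groups.

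Of the chromatin genes, Chaf1a, the large subunit of chromatin assembly factor 1, was at 11.5, 9.88 and 11.7 TPM in Tfh_TILS, 48.9, 49.8 and 51.7 TPM in Tfh_OTII and 33.7, 31.6 and 28.8 TPM in Tfh_Vitro. It fell with a fold change of -2.09 ± 0.39 against Tfh_OTII (adjusted p = 0.00365), while -1.43 ± 0.39 against Tfh_Vitro did not pass (adjusted p = 0.0864). Its partner Chaf1b did not pass against Tfh_OTII (fold change -0.88, adjusted p = 0.263), at 9.91, 9.58 and 9.86 TPM in Tfh_TILS, 20.6, 19.5 and 16.6 TPM in Tfh_OTII and 15.7, 13.4 and 14.5 TPM in Tfh_Vitro. Slbp, which binds the stem-loop of histone mRNAs, was at 69.6, 74.1 and 62.9 TPM in Tfh_TILS, 144, 135 and 142 TPM in Tfh_OTII and 99.2, 107 and 98.6 TPM in Tfh_Vitro. Slbp fell against Tfh_OTII with a fold change of -1.02 ± 0.26 (adjusted p = 0.0192), while -0.56 ± 0.26 against Tfh_Vitro did not pass (adjusted p = 0.367).

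**Figure D4:**
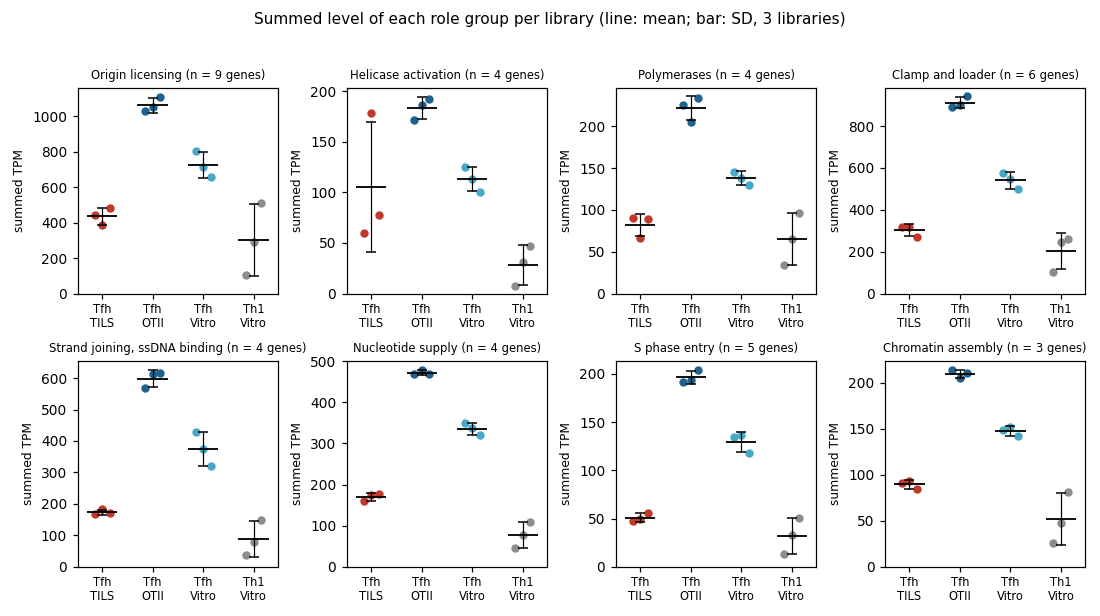
Summed TPM as deposited of each of the 8 role groups in each library, with the mean as a line and the SD as a bar (n = 3 libraries). In every group but helicase activation, the Tfh_TILS libraries lie below all Tfh_Vitro libraries, which lie below all Tfh_OTII libraries; in helicase activation, Tfh_TILS replicate 2 reaches 178 TPM, within the Tfh_OTII range.

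Against the Th1 cultures the result depended on the scaling. In Tfh_TILS, 37 of the 39 genes had a higher mean TPM than in Th1_Vitro as deposited, and 7 after scaling. As deposited 14 members were called higher, while 49.3% of all genes were called higher too. The 3 comparisons with Th1_Vitro share its libraries. Cdc45 alone was called higher both ways, against 10.2% of all genes, with a fold change of 3.01 ± 0.56 (adjusted p = 0.000969) and 1.91 ± 0.56 after scaling (adjusted p = 0.0335). That call was lost without replicate 2 or 3 of Tfh_TILS or replicate 1 of Th1_Vitro. Pold1 was called lower after scaling only, when 6.99% of all genes were, with a fold change of -1.54 ± 0.37 (adjusted p = 0.0136), and was called lower both ways without Th1_Vitro replicate 1. Cdc45 was at 27.3, 146 and 45.7 TPM in Tfh_TILS and 2.04, 8.94 and 11.4 TPM in Th1_Vitro, and Pold1 at 16.9, 12.4 and 20.2 TPM in Tfh_TILS and 10.5, 20.6 and 44.7 TPM in Th1_Vitro. The median fold change of the members was 0.74 as deposited and -0.34 after scaling, against 0.87 and 0.16 over all genes, so the members' median was below that of all genes both ways. Ccne1, at 9.12, 8.34 and 8.76 TPM in Tfh_TILS and 3.30, 7.34 and 9.03 TPM in Th1_Vitro, overlapped between these groups.

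The Tfh cultures were higher than the Th1 cultures for part of the set. In Tfh_OTII against Th1_Vitro, 18 members rose both ways, against 12.3% of all genes, and the median fold change was 2.17 (1.06 after scaling), against 0.79 over all genes (0.12 after scaling). In Tfh_Vitro against Th1_Vitro, 7 rose both ways, against 8.65% of all genes, with a median of 1.54 (0.48 after scaling), against 0.78 over all genes (0.14 after scaling). These 7 were Mcm10, Rrm1, Rrm2, Ccne1, Lig1, E2f2 and Chaf1a, and all of them were also among the 18. As deposited, 39 and 34 members were called, while 42.7% and 41.1% of all genes were. The Th1_Vitro libraries differed much among themselves, with Mcm2 at 18.9, 32.5 and 69.2 TPM and Pcna at 61.5, 152 and 114 TPM. E2f2, at 1.18, 1.55 and 1.14 TPM in Th1_Vitro, rose in Tfh_OTII with a log2 fold change of 4.67 ± 0.49 as deposited and 3.86 ± 0.47 after scaling (adjusted p = 0.00012), and in Tfh_Vitro by 3.63 ± 0.49 and 2.87 ± 0.47 (adjusted p = 0.00204). Lig1, at 7.65, 15.8 and 37.2 TPM in Th1_Vitro, rose in Tfh_OTII by 4.39 ± 0.40 and 3.31 ± 0.39 (adjusted p = 9.19e-05 after scaling), and in Tfh_Vitro by 3.60 ± 0.40 and 2.56 ± 0.39 (adjusted p = 0.00124). Rrm2 rose by 2.87 ± 0.50 in Tfh_OTII and 2.42 ± 0.50 in Tfh_Vitro after scaling. The members with the smallest scaled fold changes in Tfh_OTII were Cdt1, E2f1 and Pold1, with 0.06 ± 0.29, 0.07 ± 0.35 and 0.05 ± 0.37, and none of these passed. Leaving out 1 of the 6 libraries compared gave 10 to 24 members higher in Tfh_OTII and 5 to 9 in Tfh_Vitro. The fewest, 10, came without Tfh_OTII replicate 3, and 12 came without Th1_Vitro replicate 1.

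**Figure D5:**
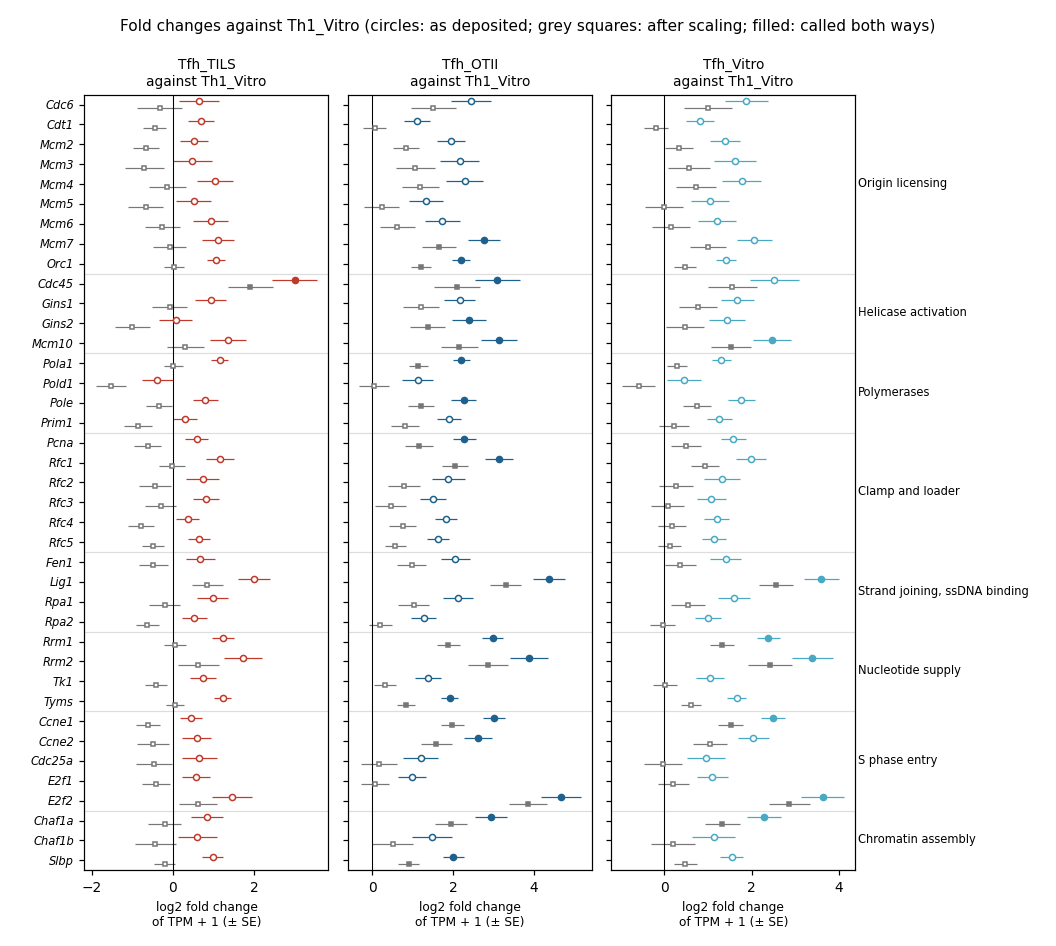
Log2 fold changes of TPM + 1 with limma's standard errors for the 39 genes in each Tfh group against Th1_Vitro, as deposited (circles) and after scaling (grey squares), with filled symbols for genes called both ways. Scaling moves the symbols to the left, and 1 gene is filled in Tfh_TILS, 18 in Tfh_OTII and 7 in Tfh_Vitro.

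A further 55 replication genes that are not among the 39, all of which were tested, were counted in the same way. In Tfh_TILS against Tfh_OTII, 29 of the 55 fell, against 6.84% of all genes, and none rose, with a median fold change of -0.89. The largest differences were in Uhrf1, which keeps DNA methylation on new strands, Clspn, a fork checkpoint adaptor, and Chtf18, a clamp loader subunit. Clspn was at 19.2, 21.2 and 17.4 TPM in Tfh_TILS and 98.1, 102 and 108 TPM in Tfh_OTII. In Tfh_TILS against Tfh_Vitro, 3 fell, against 0.849% of all genes, and none rose. These were Pclaf, a Pcna-binding protein (-1.60 ± 0.28), Clspn (-1.46 ± 0.24) and Ccna2, cyclin A2 (-1.08 ± 0.21), with limma adjusted p of 0.0117, 0.00894 and 0.0215. In Tfh_OTII against Tfh_Vitro none passed both ways and the median was 0.48. In Tfh_TILS against Th1_Vitro, 2 of the 55 (3.64%) rose, Ccna2 and the repressor E2f8, against 10.2% of all genes, and 7 were called lower after scaling only. In Tfh_OTII and Tfh_Vitro against Th1_Vitro, 26 and 9 of the 55 rose, against 12.3% and 8.65% of all genes, led by Clspn, E2f8 and the histone chaperone Asf1b.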

How the data were processed

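The 12 deposited tables hold 1 TPM value per gene symbol, which the authors made with kallisto on mm10, per the submitters' processing notes; its version, the annotation and the step from transcripts to genes are not given in the sources used here. RNA came from 300000 cells per sample and was sequenced as pairs of 75 bases after a stranded total RNA preparation, per the labels' protocols. On the log2(TPM + 1) scale, the 23308 of 35492 symbols whose mean reached 1 TPM in any group, all 39 members among them, were fitted with limma 3.58.1 in R 4.3.3, with an intensity trend, 1 mean per group over all 12 libraries and 8 residual degrees of freedom. Standard errors are limma's, and p-values were adjusted by Benjamini-Hochberg over all genes tested. The fold change is on the log2(TPM + 1) scale and understates the change of low genes. The fit was repeated after dividing each library by its median-of-ratios size factor over 17585 genes. Each size factor assumes that most genes do not differ. The script was tested on simulated data. Tables and motifs were handled with pandas 2.3.3, scipy 1.17.1 and numpy 2.4.6 under python 3.11.15.

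The members, role groups and other lists were chosen with earlier results of these data known. Among the Tfh groups the text names the members with the largest and smallest fold change of each role, 10 members named throughout, and in the other lists up to 3 called genes at each end; the comparisons with Th1_Vitro name fewer, and further names are given where a count needs them. Same-numbered libraries deviated from their group means with correlations of -0.386 to 0.303, and differently numbered libraries with -0.28 to 0.36. With 3 libraries a group these correlations cannot show whether the numbers pair the samples, and the labels do not state it. Exons of 14 members overlap a gene on the other strand in GENCODE M21, so their values are uncertain if strand was not used. They are Mcm7, Tk1, Ccne2, Cdc45, Gins2, Orc1, Pole, Slbp, Lig1, Rfc2, Rfc4, Rfc5, Fen1 and Chaf1a. The gene that overlaps Rfc4, Eif4a2, averaged 1129 TPM in Tfh_TILS, 1525 TPM in Tfh_OTII and 1585 TPM in Tfh_Vitro. Lat2, which overlaps Rfc2, was at 6.66, 64.6 and 19.3 TPM in Tfh_TILS. Pcna and Tyms have pseudogenes in the tables. Gene coordinates are those of GRCm38.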

Additional observations from a re-analysis of the deposited data

How the results depend on the processing

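Counts of members called moved with the libraries in the fit, the scaling, the pseudocount and the filter, and in each comparison only the 6 libraries compared were left out in turn. Where no share of all genes in the same direction is given, a count shows only how the calls moved with the setting. Members lower in Tfh_TILS against Tfh_Vitro as deposited numbered 3. The count was 6 with trimmed-mean scaling, 5 with a filter at 5 TPM, 1 with a pseudocount of 0.1 or with no filter, 9 with only the groups compared and 24 without the Th1_Vitro libraries. Of all 23308 genes, 220 were lower as deposited and 739 without the Th1_Vitro libraries. Called both ways, the 3 became 6 with only the groups compared and 15 without Th1_Vitro. Leaving out 1 library gave 1 to 2 as deposited and 1 to 2 both ways, and without Th1_Vitro 13 to 27 and 2 to 17. In Tfh_TILS against Tfh_OTII, leaving out 1 library gave 15 to 21 as deposited and 14 to 21 both ways, and without Th1_Vitro 34 to 35 and 31 to 34. In Tfh_OTII against Tfh_Vitro, 1 member was higher as deposited. None was with median-of-ratios or trimmed-mean scaling (0 each), with the pseudocount of 0.1 (0) or with 1 of the 6 libraries left out (0 to 0), while 29 were with only the groups compared and 18 without Th1_Vitro (1 both ways; 1 to 14 and 0 to 1 with a further library left out). Of all genes, 230 were higher in Tfh_OTII against Tfh_Vitro as deposited and 915 without Th1_Vitro. Against Th1_Vitro the scaling set the counts. In Tfh_TILS 14 became 1 with either scaling and 6 with only the groups compared, and the 1 called both ways became 0. Lower members went to 1 with either scaling, against 0 as deposited. Leaving out 1 library gave 8 to 30 higher, 0 to 2 higher both ways, 0 to 1 lower and 0 to 1 lower both ways. In Tfh_OTII 39 became 18 with median-of-ratios and 21 with trimmed-mean scaling, and the 18 called both ways became 8 with only the groups compared (leaving out 1 library: 34 to 39, and 10 to 24 both ways). In Tfh_Vitro 34 became 7 and 10, and the 7 became 3 (28 to 39, and 5 to 9 both ways).

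Counts over all genes moved likewise. In Tfh_TILS against Tfh_Vitro, 489 became 262 with the pseudocount of 0.1, 131 with only the groups compared and 1264 without Th1_Vitro (94 to 883, and 237 to 2025 without Th1_Vitro, with 1 library left out). In Tfh_OTII against Tfh_Vitro, 555 became 359, 2672 and 1347 (144 to 456, and 255 to 893). In Tfh_TILS against Tfh_OTII, 3556 were called (2000.0 to 3324, and 3277 to 5210.0). Median-of-ratios and trimmed-mean scaling turned 11641 into 4008 and 4524 in Tfh_TILS against Th1_Vitro (9292 to 12222), 10226 into 4667 and 4944 in Tfh_OTII (7703 to 10726) and 9688 into 3196 and 3670.0 in Tfh_Vitro (6303 to 10385).

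With the replicate number as a block, 1 member was lower in Tfh_TILS against Tfh_Vitro, as deposited and both ways, 279 genes were called there in all, and 0 members were higher in Tfh_OTII against Tfh_Vitro. In Tfh_TILS against Tfh_OTII, 24 members were lower, and the share of all genes lower with this block is not given. Whether the numbers pair the samples is not stated in the labels.

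In Tfh_TILS against Th1_Vitro, 38 members were above 0 as deposited and 9 after median-of-ratios scaling, so that 29 changed sign, of which 5 had been called. With median-of-ratios scaling Mcm7 was at -0.0852, Pole at -0.34, Rfc1 at -0.0189, Rpa1 at -0.20 and Slbp at -0.21, and with trimmed-mean scaling, of the members called, Pole was at -0.21, Rpa1 at -0.06745 and Slbp at -0.07405. In Tfh_Vitro against Th1_Vitro, 5 members changed sign with median-of-ratios scaling (Mcm5, Cdt1, Pold1, Cdc25a and Rpa2), of which Rpa2, at -0.0368, had been called. Apart from the settings' own construction (fewer libraries, other scaling), the cause was not tested. The fit without Th1_Vitro was chosen after seeing the data. The depth is unknown, so counting error could not be set beside the spread, and with 3 libraries a group a single one can decide a call.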

Other observations

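Mitosis genes were highest in Tfh_OTII and lowest in Th1_Vitro. The summed level of 20 mitosis genes was 273, 425 and 274 TPM in Tfh_TILS, 1565, 1662 and 1829 TPM in Tfh_OTII, 834, 788 and 698 TPM in Tfh_Vitro and 32.0, 73.5 and 93.8 TPM in Th1_Vitro, so no 2 groups overlapped. By limma, all 20 fell in Tfh_TILS against Tfh_OTII (6.84% of all genes did), with a median log2 fold change of -2.29, and 11 fell against Tfh_Vitro (0.849% of all genes did), with a median of -1.19. Birc5, a chromosome passenger protein, Tpx2, a spindle assembly factor, and Kif11, a spindle motor, differed most from Tfh_OTII. In Tfh_OTII against Tfh_Vitro, 4 rose, against 0.661% of all genes, namely Ttk, Ccnb1, Cenpe and Cenpf. In Tfh_TILS against Th1_Vitro, 11 of the 20 mitosis genes rose both as deposited and after scaling, against 10.2% of all genes. Mki67, a proliferation marker, was at 31.7, 83.4 and 36.6 TPM in Tfh_TILS and 0.751, 3.35 and 5.16 TPM in Th1_Vitro. The Tfh_TILS libraries were all above the Th1_Vitro libraries, and replicate 2 of Tfh_TILS was the highest of its group.

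Genes of G1 and of cell cycle arrest showed no common direction among the Tfh groups. Of 19 tested, Cdkn2d, an inhibitor of cyclin D kinases, fell in Tfh_TILS against both Tfh cultures, at 1.32, 14.1 and 3.58 TPM in Tfh_TILS, 20.3, 25.4 and 25.2 TPM in Tfh_OTII and 26.4, 23.3 and 22.3 TPM in Tfh_Vitro. In the fit without the Th1_Vitro libraries, none of these 19 genes was called lower against Tfh_Vitro, Cdkn2d included. Rb1, which restrains E2F factors, fell against Tfh_OTII, at 24.7, 34.3 and 26.9 TPM in Tfh_TILS and 56.4, 51.9 and 58.7 TPM in Tfh_OTII. Ccnd1, cyclin D1, rose against Tfh_OTII and was at 2.66, 17.2 and 4.86 TPM in Tfh_TILS, highest in replicate 2, against 1.35, 0.970 and 0.574 TPM in Tfh_OTII. Replicate 2 also held the most macrophage and monocyte marker RNA, and the part of such cells in the Ccnd1 value was not tested. Cdkn1b, an inhibitor of cyclin E kinase, was at 27.5, 61.2 and 30.6 TPM in Tfh_TILS, 27.9, 28.8 and 30.6 TPM in Tfh_OTII and 36.7, 29.1 and 31.3 TPM in Tfh_Vitro, and these ranges overlapped.

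The summed macrophage and monocyte markers and the summed B cell markers were higher in every Tfh_TILS library than in any culture library as deposited. After scaling this held for the macrophage and monocyte sum, whereas the B cell sum was 44.8 to 65.5 in Tfh_TILS and 40.5 to 52.6 in Th1_Vitro, which overlapped. None of the 12 macrophage and monocyte markers was at 0 in all Tfh_TILS libraries. Summed B cell markers were at 74.6, 63.3 and 68.5 TPM in Tfh_TILS and 12.2 to 52.9 TPM in the cultures. The sum of 7 dendritic cell markers was 23.8, 70.8 and 29.9 TPM in Tfh_TILS, highest in replicate 2, and 7.05 to 23.1 TPM in the cultures. After scaling that sum was 20.9 to 50.2 in Tfh_TILS and 16.0 to 21.3 in Th1_Vitro, which overlapped. Summed fibroblast and endothelial markers were at 163, 157 and 115 TPM in Tfh_TILS and 34.5 to 136 TPM in the cultures, and these ranges overlapped. Summed carcinoma and epithelial markers reached at most 17.95 TPM in any library. The part of these cells in the levels of the replication genes was not tested.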
